A study of Homo sapiens with 118 samples.

Results

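Expression of the CYP2A, CYP2B, CYP2D, CYP2E and CYP2J enzymes and their relatives CYP2S1, CYP2U1 and CYP2R1 was measured in differentiated HepaRG cells exposed to histone deacetylase (HDAC) inhibitors. The genes were chosen by name: CYP2A6, CYP2A7, CYP2A13, CYP2B6, CYP2D6, CYP2E1, CYP2J2, CYP2S1, CYP2U1 and CYP2R1. Every row of the deposited count table that carries one of these 10 names was used, which gave 12 probe features among the 22068 rows with a value in every library. CYP2B6 and CYP2U1 each had a pair of probes, and the other genes had 1 probe each. HepaRG is an established human liver tumour line; the labels list its cells as liver progenitor cells, and the cultures were used after differentiation. Each culture was exposed for 72 h, with the chemical renewed daily, to 1 of 8 HDAC inhibitors at 5 dose levels, written C1 for the lowest through C5 for the highest. There were 118 libraries in 40 groups. Of these groups, 38 held 3 libraries, 1 from each of 3 HepaRG culture batches, and the panobinostat C3 and trichostatin A C4 groups lacked batch 3.

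The doses in µM were 0.041722 at C1, 0.125167 at C2, 0.3755 at C3, 0.5 at C4 and 0.86 at C5 for apicidin, 0.177222 at C1, 0.531667 at C2, 1.595 at C3, 2.5 at C4 and 3.9 at C5 for mocetinostat and 0.001468 at C1, 0.004403 at C2, 0.01321 at C3, 0.03963 at C4 and 0.084 at C5 for panobinostat. They were 4.94 at C1, 14.82 at C2, 44.46 at C3, 60 at C4 and 94.5 at C5 for scriptaid, 1.143333 at C1, 3.43 at C2, 10.29 at C3, 30.87 at C4 and 44 at C5 for tacedinaline and 0.018811 at C1, 0.056433 at C2, 0.1693 at C3, 0.5079 at C4 and 1.5237 at C5 for trichostatin A. Vorinostat was used at 0.404778 at C1, 1.214333 at C2, 3.643 at C3, 10.929 at C4 and 23.5 at C5 µM. Valproic acid was labelled 100.478 at C1, 301.433 at C2, 904.3 at C3, 2712.9 at C4 and 3038 at C5 µM, but the treatment protocol gives numbers smaller by a constant factor in the same unit, so its dose unit is not settled. Solvent control libraries were not analysed here, and C1 of the same chemical was the reference throughout, so a response already present at C1 cannot be seen. Apicidin, mocetinostat, panobinostat, trichostatin A and valproic acid lay on plate H and the other 3 chemicals on plate E, so chemical and plate cannot be told apart between those sets. Levels are given as CPM, the counts divided by library size after edgeR's TMM scaling over all 118 libraries, as mean ± SD with n = 3 unless stated. Probes differ in efficiency, so levels of different probes were not compared.

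Cytochrome P450 enzymes of family 2 are haem proteins of the endoplasmic reticulum that oxidise drugs, toxicants and lipids with electrons delivered by cytochrome P450 oxidoreductase (POR). In liver, CYP2A6 oxidises nicotine and coumarin, CYP2B6 oxidises bupropion and efavirenz, CYP2D6 oxidises many basic drugs, and CYP2E1 oxidises ethanol and other small molecules. CYP2B6 is a classic target of the nuclear receptors CAR (NR1I3) and PXR (NR1I2), whereas CYP2J2 forms epoxides of arachidonic acid, CYP2R1 is a vitamin D 25-hydroxylase and CYP2U1 hydroxylates fatty acids.

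Promoter windows from the RefSeq table of GRCh38.p14, each running from 250 bases before to 50 after a transcript start, were found for 9 of the 10 genes. CYP2D6 had no entry. The count table states no genome build, so these sequences were matched by gene name only. Sequences are shown for the pair of genes with the most calls in each direction, and for the near-identical CYP2A6 and CYP2A7. Letters in capitals mark 4 motifs searched on both strands. The TATA box was searched as TATAAA, and it was held by 11.5% of all 35116 promoter windows of the same length. The CCAAT box, searched by these letters, was held by 34.6%. The GC box was searched as GGGCGG and was held by 45.0%. The half-site of nuclear receptors was searched as AGGTCA and was held by 13.8%. The windows of CYP2E1 (chr10:133527113-133527412, forward strand) and CYP2B6 (chr19:40991032-40991331, forward strand), which had the most decreases, follow first, and those of CYP2U1 (chr4:107931299-107931598, forward strand) and CYP2R1 (chr11:14891622-14891921, reverse strand), which had the most increases, come next. CYP2R1 has 3 start sites in the table, and the one with the most CG dinucleotides is shown.
CYP2E1: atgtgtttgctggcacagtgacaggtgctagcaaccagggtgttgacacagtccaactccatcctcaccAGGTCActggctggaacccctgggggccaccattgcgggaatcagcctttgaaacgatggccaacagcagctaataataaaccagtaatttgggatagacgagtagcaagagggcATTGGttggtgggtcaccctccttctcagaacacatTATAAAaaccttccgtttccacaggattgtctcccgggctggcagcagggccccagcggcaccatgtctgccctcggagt
CYP2B6: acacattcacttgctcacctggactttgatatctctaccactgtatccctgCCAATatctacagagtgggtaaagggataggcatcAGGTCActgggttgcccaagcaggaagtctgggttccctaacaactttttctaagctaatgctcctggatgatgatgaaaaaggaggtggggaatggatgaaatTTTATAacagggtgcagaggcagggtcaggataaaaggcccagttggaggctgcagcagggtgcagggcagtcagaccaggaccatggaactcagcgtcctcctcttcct
CYP2U1: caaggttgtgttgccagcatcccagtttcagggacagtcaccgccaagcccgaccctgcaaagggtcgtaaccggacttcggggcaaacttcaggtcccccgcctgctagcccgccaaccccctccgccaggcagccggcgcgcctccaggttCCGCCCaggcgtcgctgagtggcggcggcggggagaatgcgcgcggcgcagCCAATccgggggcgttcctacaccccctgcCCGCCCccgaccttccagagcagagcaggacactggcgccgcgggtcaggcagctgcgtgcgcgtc
CYP2R1: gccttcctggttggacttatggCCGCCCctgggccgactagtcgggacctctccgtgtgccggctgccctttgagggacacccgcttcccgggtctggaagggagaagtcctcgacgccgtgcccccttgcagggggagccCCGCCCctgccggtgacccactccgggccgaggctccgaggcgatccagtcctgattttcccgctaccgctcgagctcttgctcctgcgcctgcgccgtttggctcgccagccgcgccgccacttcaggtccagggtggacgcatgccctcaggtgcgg

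The CYP2E1 and CYP2B6 windows each held 1 match to the TATA box, 1 to the CCAAT box and 1 to the half-site, and none to the GC box. The CYP2U1 and CYP2R1 windows shown held no TATA box match, no half-site match and 2 GC box matches each. CYP2U1 also held 1 CCAAT box match. CG dinucleotides numbered 7 in the CYP2E1 window and 1 in the CYP2B6 window, against 31 for CYP2U1 and 28 for CYP2R1, and the median of all windows was 14. The other CYP2R1 starts had 16 and 10, with 1 and 0 GC box matches and 2 and 0 CCAAT box matches. The CYP2J2 window held 24 and the CYP2S1 window 29, with 2 and 3 GC box matches and no TATA box match. The CYP2S1 window also held 1 half-site match. The CYP2A6, CYP2A7 and CYP2A13 windows held 2, 3 and 1 CG dinucleotides and 1 TATA box match each. These matches describe letters in the windows and were not tied to any measurement.

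CYP2A6 (chr19:40850398-40850697, reverse strand) and CYP2A7 (chr19:40882182-40882481, reverse strand) were identical at 287 of 300 positions (95.7%) with no gap, and capitals here mark the 13 positions that differ. They are shown as an example of how close these gene copies are. Probes target transcripts and not these windows.
CYP2A6: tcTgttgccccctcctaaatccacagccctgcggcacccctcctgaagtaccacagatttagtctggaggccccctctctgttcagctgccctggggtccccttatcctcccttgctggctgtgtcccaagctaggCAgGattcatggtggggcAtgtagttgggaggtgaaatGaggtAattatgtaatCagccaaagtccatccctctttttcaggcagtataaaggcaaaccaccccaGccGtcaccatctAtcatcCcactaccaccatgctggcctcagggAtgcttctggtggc
CYP2A7: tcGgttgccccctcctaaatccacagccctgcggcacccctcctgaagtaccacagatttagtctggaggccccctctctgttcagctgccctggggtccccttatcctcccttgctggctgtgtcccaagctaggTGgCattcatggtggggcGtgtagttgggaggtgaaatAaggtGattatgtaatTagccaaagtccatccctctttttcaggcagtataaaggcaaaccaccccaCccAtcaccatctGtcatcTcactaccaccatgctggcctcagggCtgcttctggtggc
Probe sequences were not used here, so how far each probe separates these copies was not checked and the CYP2A counts are uncertain between them. The same holds for CYP2B6 and its pseudogene CYP2B7P, and for CYP2D6 and its pseudogene neighbour CYP2D7. CYP2U1 overlaps an antisense gene, CYP2U1-AS1, and the sources used here do not say how strand was treated in counting.

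Libraries held 1061359 to 5250260 counts in total, 3702007 at the median. The 10 hepatocyte markers examined (among them ALB and APOA1) were detected in every C1 library, with ALB at 7507 to 33871 CPM. Biliary and progenitor markers summed to 65.4 to 167 CPM at C1 and mesenchymal markers to 181 to 363 CPM. A pair of libraries stood apart. The trichostatin A C1 library of batch 3 had a hepatocyte marker sum of 18000 CPM, against 50872 to 102596 in the other 23 C1 libraries. The scriptaid C4 library of batch 3 had a scaling factor of 0.699, against 0.845 to 1.19 in the other 117. Without the trichostatin A library, the C5 log2 changes with that chemical were -0.68 for CYP2B6_14401, 1.83 for CYP2B6_1710, 0.33 for CYP2D6, 0.30 for CYP2J2, 0.43 for CYP2R1, -0.76 for CYP2S1 and 0.05 for CYP2U1_1726, none called. Since these were bulk lysates, fewer cells of a type and less RNA per cell cannot be told apart.

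Coverage differed widely among the probes, which set what could be tested. CYP2E1, CYP2J2, CYP2R1 and the probe CYP2U1_1726 had counts in all 118 libraries, with medians of 213.5, 113, 706 and 29 counts. CYP2B6_14401 and CYP2S1 had medians of 13 and 15 counts. These 6 features passed the low-count filter with all 8 chemicals. CYP2A13 had 7 counts in all 118 libraries together, and none in any C1 library. CYP2A6 had 50 counts in all and at most 5 in a library. Neither was tested with any chemical, and a change in them was not detectable at this depth. CYP2A7, the CYP2D6 probe, CYP2B6_1710 and CYP2U1_21133 had medians of 2, 5, 2 and 4.5 counts and were tested with 2, 3, 3 and 7 chemicals.

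At C5, CYP2E1 fell with 7 of the 8 inhibitors and CYP2B6 with 5, while CYP2U1 rose with 6 by its first probe and CYP2R1 with 4. No member was called with trichostatin A. Whether the expression of these enzymes differed between the highest and the lowest concentration was tested for each chemical with edgeR's quasi-likelihood test over all features. A feature was called when its Benjamini-Hochberg adjusted p was under 0.05 and its fold change at least 1.5. Over the 8 chemicals, 63 tests of member features were made at C5, of which 15 rose and 15 fell. In 28 of these 30 calls the C1 and C5 libraries did not overlap, and in all 30 each of the 3 batches moved in the direction called. The calls were made on these same libraries, so this describes them and adds no support. Features that were not called could be free of overlap too, as with scriptaid, where 7 of 7 tested features were. The share free of overlap among all features was not computed. CYP2A7 and CYP2U1_21133 passed the filter through the groups where they were high, as given below. With apicidin, 2 of 8 tested features rose and 2 fell, where 13.8% and 15.0% of the 12706 features tested did so. With mocetinostat, 3 of 8 tested features rose and 3 fell, where 14.8% and 15.7% of the 13065 features tested did so. With panobinostat, 2 of 9 tested features rose and 1 fell, where 6.77% and 9.46% of the 13104 features tested did so. With scriptaid, 2 of 7 tested features rose and 3 fell, where 12.8% and 17.0% of the 12790 features tested did so. These shares of all features are the background against which the members' counts stand. With tacedinaline, 3 of 7 tested features rose and 2 fell, where 18.7% and 20.1% of the 12461 features tested did so. With trichostatin A, 0 of 8 tested features rose and 0 fell, where 0.0% and 0.0154% of the 12993 features tested did so. With valproic acid, 1 of 9 tested features rose and 2 fell, where 4.84% and 6.22% of the 12982 features tested did so. With vorinostat, 2 of 7 tested features rose and 2 fell, where 22.7% and 24.9% of the 11631 features tested did so. With trichostatin A, 1 of 8 member tests had an unadjusted p under 0.05, as had 1255 of 12993 features, and DESeq2 called no member. The median log2 change of the members tested was 0.89 with apicidin, 0.44 with mocetinostat, 0.48 with panobinostat, 1.08 with scriptaid, -0.33 with tacedinaline, -0.21 with trichostatin A (0.17 without its C1 library of batch 3), -0.28 with valproic acid and 0.72 with vorinostat. Over all features tested the medians were at most 0.08 in size. With 7 to 9 members tested per chemical, the counts are given as a description and were not tested against these shares.

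**Figure D1:**
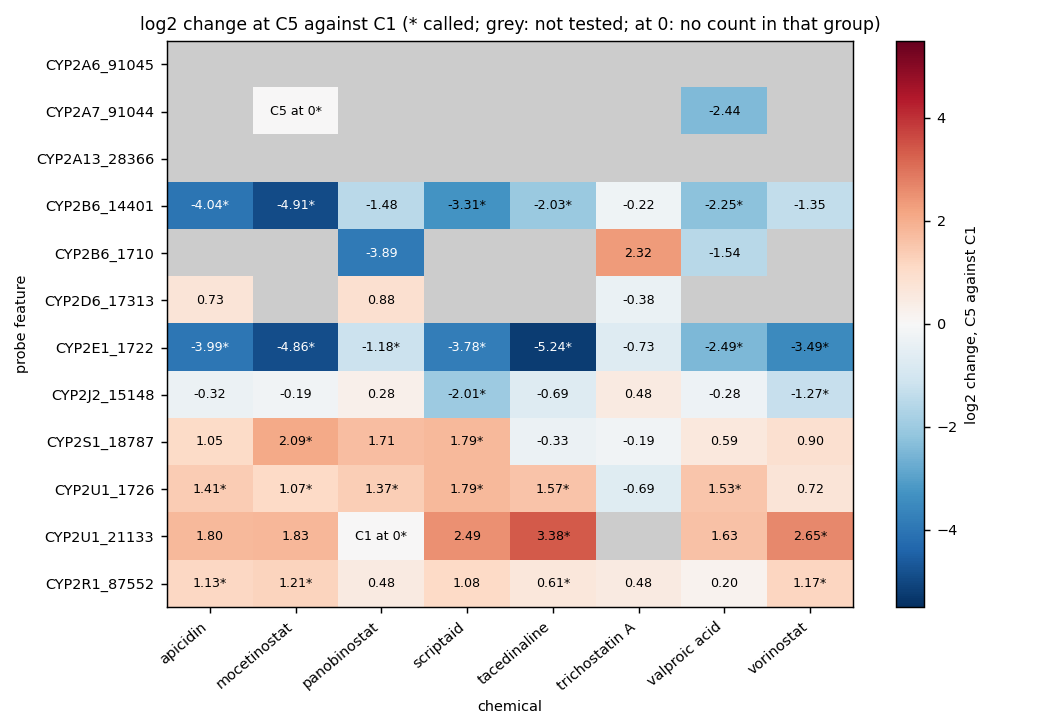
Fitted log2 change at C5 against C1 for each of the 12 probe features (rows) and 8 chemicals (columns), with blue for lower and red for higher, an asterisk for a call, grey for features not tested and "at 0" where a group had no count. The CYP2E1 row is blue with all 8 chemicals and called with 7, while the CYP2R1 row is red throughout and called with 4.

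CYP2E1, which oxidises ethanol and is abundant in mature hepatocytes, fell with 7 of 8 chemicals. With tacedinaline the C1 libraries were at 208, 121 and 89.6 CPM in batches 1, 2 and 3 and the C5 libraries at 4.95, 3.43 and 2.04 CPM (log2 change -5.24, SE 0.36, adjusted p = 4.8e-16). With mocetinostat they were at 287, 237 and 184 CPM at C1 and at 15.2, 6.16 and 1.21 CPM at C5 (log2 change -4.86, SE 0.57, adjusted p = 8e-06). With apicidin the libraries at C1 held 219, 147 and 146 CPM and those at C5 13.3, 9.05 and 9.70 CPM (log2 change -3.99, SE 0.38, adjusted p = 1.2e-07). In each of these 3 chemicals every C5 library lay far below every C1 library. With scriptaid the values were 176, 80.0 and 91.6 CPM at C1 and 6.30, 5.68 and 12.4 CPM at C5 (log2 change -3.78, SE 0.76, adjusted p = 0.00098). With vorinostat they were 148, 150.4 and 75.8 CPM and 8.98, 6.12 and 15.9 CPM (log2 change -3.49, SE 0.41, adjusted p = 1.2e-08). With valproic acid they were 189.9, 149.9 and 135 CPM and 40.3, 30.6 and 12.4 CPM (log2 change -2.49, SE 0.34, adjusted p = 2.2e-05). The groups did not overlap in any of these 3 either. Panobinostat gave the smallest of the 7 decreases, with 206, 129.5 and 100.1 CPM at C1 and 102, 56.0 and 37.0 CPM at C5 (log2 change -1.18, SE 0.32, adjusted p = 0.013). Its highest C5 library, of batch 1, overlapped the lowest C1 library, of batch 3. Without batch 3 the panobinostat call was lost (log2 change -1.10, adjusted p = 0.061), as it was in 1 model of all 118 libraries (-1.16, adjusted p = 0.16). With the culture batch as a block the panobinostat change was called (-1.22, adjusted p = 0.00047).

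CYP2E1 under trichostatin A depended on the C1 library of batch 3, which held 6 counts or 1.79 CPM, against 272 and 207 CPM in batches 1 and 2. The C5 libraries held 119, 70.5 and 98.2 CPM. With that library no change was called (log2 change -0.73, SE 0.71, adjusted p = 0.8). Without it CYP2E1 fell (log2 change -1.31, SE 0.26, adjusted p = 0.012), in a fit that called 0.808% of 12878 features. That library was low in hepatocyte markers as a whole, and the part of this in the CYP2E1 value was not tested.

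The decrease of CYP2E1 was called from the middle concentrations on. Group means with apicidin were 171 ± 42.0, 112 ± 27.5, 24.6 ± 16.0, 14.9 ± 1.43 and 10.7 ± 2.31 CPM from C1 to C5. With tacedinaline they were 139 ± 61.4, 115 ± 26.0, 71.1 ± 16.5, 6.41 ± 2.87 and 3.47 ± 1.46 CPM. The step between C3 and C4 with tacedinaline, and between C2 and C3 with apicidin, left no overlap between libraries. With mocetinostat the means were 236 ± 51.3, 88.6 ± 20.3, 67.0 ± 16.4, 9.11 ± 4.16 and 7.53 ± 7.10 CPM. With valproic acid they were 158 ± 28.3, 66.6 ± 5.97, 43.9 ± 9.53, 24.1 ± 11.0 and 27.8 ± 14.1 CPM. With scriptaid they were 116 ± 52.4, 68.5 ± 71.4, 11.1 ± 12.7, 7.46 ± 1.80 and 8.13 ± 3.72 CPM. CYP2E1 was first called at C3 with 6 chemicals and at C4 with panobinostat. With vorinostat the means were 125 ± 42.2, 97.3 ± 33.0, 36.5 ± 22.0, 15.0 ± 9.68 and 10.3 ± 5.04 CPM. With panobinostat they were 145 ± 54.8, 104 ± 48.5, 107 ± 16.0 (n = 2), 57.9 ± 2.08 and 64.9 ± 33.2 CPM. With trichostatin A they were 160.0 ± 141, 223 ± 86.8, 270.4 ± 68.0, 226 ± 36.1 (n = 2) and 95.8 ± 24.3 CPM. Ordered by their C5 means the chemicals ran from trichostatin A, panobinostat and valproic acid through apicidin, vorinostat and scriptaid to mocetinostat and tacedinaline, and the libraries of every neighbouring pair in this order overlapped.

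**Figure D2:**
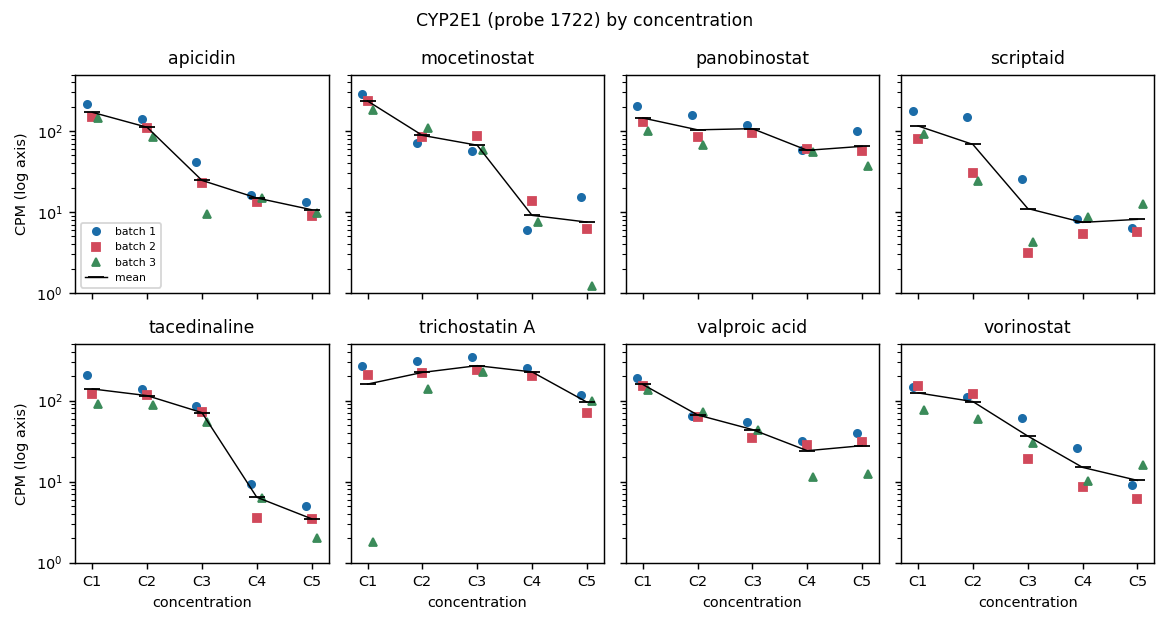
CYP2E1 level in CPM (log axis) at concentrations C1 to C5 for each chemical, with 1 symbol per culture batch and a line through the group means. All C5 libraries of apicidin, mocetinostat, scriptaid, tacedinaline and vorinostat lie under 16 CPM, and the batch 3 library of trichostatin A at C1 lies at 1.79 CPM, apart from its group.

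Hepatocyte markers moved with CYP2E1. All 10 fell at C5 with mocetinostat, scriptaid, tacedinaline and vorinostat, 9 of 10 fell with apicidin, panobinostat and valproic acid, and none was called with trichostatin A. Of all features tested, between 6.22% (valproic acid) and 24.9% (vorinostat) fell with the chemicals other than trichostatin A, and 0.0154% with trichostatin A. Their summed level was 58182 to 76502 CPM at C1 and 4131 to 5471 CPM at C5 with tacedinaline. With panobinostat it was 55636 to 70409 CPM and 25370 to 33491 CPM. The median log2 change of the 10 markers ran from -4.34 with vorinostat and -4.10 with tacedinaline to -1.20 with panobinostat and 0.03 with trichostatin A (-0.41 without its C1 library of batch 3, when HP and FGB fell), where the median of all features tested lay at 0.08 or below in size. ASGR1, the asialoglycoprotein receptor of hepatocytes, fell with 7 chemicals, from 79.4 to 0.429 CPM with vorinostat. The part of the hepatocyte markers in the CYP2E1 result was not tested.

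CYP2B6, the bupropion-oxidising enzyme inducible through CAR and PXR, fell at C5 with 5 chemicals as read by the probe CYP2B6_14401. With scriptaid the C1 libraries held 15.2, 14.6 and 7.27 CPM and the C5 libraries 2.52, 0.568 and 0.477 CPM (log2 change -3.31, SE 0.78, adjusted p = 0.0034). With apicidin they held 6.92, 15.2 and 4.08 CPM and 0, 0.978 and 0.498 CPM (log2 change -4.04, SE 0.92, adjusted p = 0.0021). With valproic acid they held 7.61, 16.5 and 9.96 CPM and 4.01, 1.42 and 1.41 CPM (log2 change -2.25, SE 0.53, adjusted p = 0.0069). No C5 library reached its C1 range in these 3. With mocetinostat 113 counts were read at C1 and 3 at C5, a ratio of 35.0 with an exact 95% counting interval of 11.7 to 172 (adjusted p = 0.0066). With tacedinaline the libraries held 7.58, 4.74 and 12.0 CPM at C1 and 2.47, 3.08 and 0 CPM at C5 (log2 change -2.03, SE 0.85, adjusted p = 0.04996), next to the threshold. DESeq2 did not call that change (adjusted p = 0.060), and without batch 3 its log2 change was -1.03 (adjusted p = 0.45). Leaving out single batches also ended the calls with mocetinostat (batch 1 or 2), scriptaid (batch 2) and valproic acid (batch 2 or 3). The hepatocyte markers above fell with these 5 chemicals, and also with panobinostat and vorinostat, where CYP2B6_14401 was not called at C5. The part of these markers in the CYP2B6 result was not tested. Of these 5 calls the apicidin call was the one that held under every alternative that tested it.

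CYP2B6 was not called at C5 with panobinostat (log2 change -1.48, SE 0.58, adjusted p = 0.083), vorinostat (log2 change -1.35, SE 0.79, adjusted p = 0.15) or trichostatin A (log2 change -0.22, SE 0.55, adjusted p = 0.94, and -0.68 without the C1 library of batch 3). With both probes summed, CYP2B6 with panobinostat was called as fallen (log2 change -1.81, adjusted p = 0.019), and the second probe had 21 counts at C1 and 1 at C5 (ratio 19.1, exact 95% interval 3.07 to 790.0). With vorinostat it fell at C3 only, where the libraries held 0, 1.76 and 1.32 CPM against 14.5, 9.07 and 4.35 CPM at C1 (log2 change -3.08, SE 0.92, adjusted p = 0.032). At C4 of vorinostat the batch 1 library was at 8.24 CPM and the others at 0.658 and 1.51, so the batches were spread. The second probe, CYP2B6_1710, had few reads and no call in the main fits. Over the 3 libraries of a group its counts were 29 at C1 and 0 at C5 with scriptaid, at least 7.14-fold lower with the floor set at 3 counts over the group. Counting intervals and floors cover counting error only. It had 32 and 3 counts with apicidin (ratio 10.1, exact 95% interval 3.14 to 51.3), and 15 and 1 with mocetinostat (ratio 13.9, exact 95% interval 2.14 to 587). With trichostatin A it had 2, 1 and 0 counts at C1 and 8, 8 and 0 at C5, the opposite order, with an uncalled log2 change of 2.32 with the C1 library of batch 3 and 1.83 without it. Without the scriptaid C4 library of batch 3, an alternative chosen after seeing the data, CYP2B6_1710 passed the filter with scriptaid and was called as fallen (adjusted p = 0.014). With scriptaid this probe was also called as fallen in 1 model of all libraries (adjusted p = 0.012) and without batch 3 (adjusted p = 0.036).

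**Figure D3:**
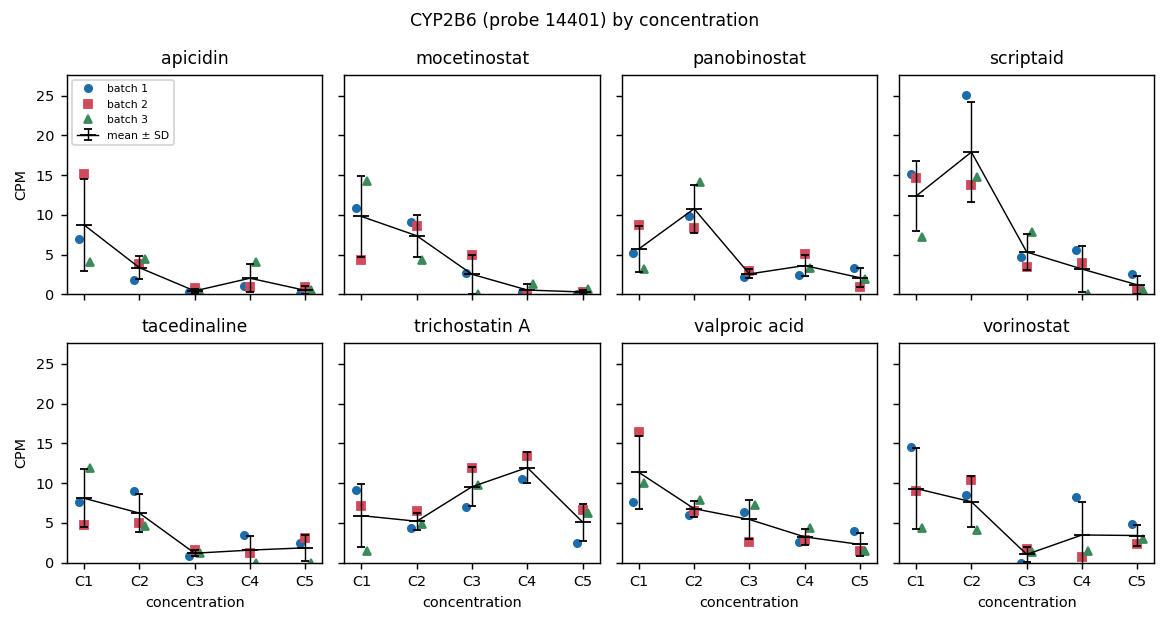
CYP2B6 level (CYP2B6_14401) in CPM at C1 to C5 for each chemical, with 1 symbol per culture batch and the mean ± SD of each group. With apicidin and mocetinostat the C5 libraries lie under 1 CPM, and with trichostatin A the C3 and C4 libraries lie at 6.94 to 13.4 CPM.

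CYP2A7, a close relative of CYP2A6, fell with mocetinostat, where the C1 libraries held 26, 9 and 13 counts and no count was read at C3, C4 or C5. With a floor of 3 counts over the group this is at least 15.6-fold, 15.3-fold and 14.9-fold lower (adjusted p = 0.012, 0.0064 and 0.0052). The feature passed the filter with mocetinostat through its C1 and C2 libraries, and without batch 1 the C5 call was lost (adjusted p = 0.053). With valproic acid it was tested and not called at C5 (18, 13 and 11 counts at C1 and 8, 0 and 0 at C5, log2 change -2.44, SE 1.26, adjusted p = 0.25). Elsewhere it was untested. Its group counts were 17 at C1 and 0 at C5 with tacedinaline, at least 4.84-fold lower, and 14 and 0 with scriptaid, at least 3.45-fold lower. With vorinostat they were 7 and 0, at least 1.31-fold lower. CYP2A6 was read at 0 to 6 counts per group. CYP2D6, the enzyme of many basic drugs, was tested with apicidin, panobinostat and trichostatin A and not called at C5 (0.73 (0.65), 0.88 (0.67) and -0.38 (0.96), as log2 change with adjusted p in parentheses). The trichostatin A value turned to 0.33 (adjusted p = 0.95) without the C1 library of batch 3. Among the untested chemicals, the CYP2D6 counts were 1, 4 and 0 at C1 and 3, 6 and 13 at C5 with tacedinaline, and 3, 1 and 1 at C1 and 9, 5 and 2 at C5 with vorinostat, so C5 was higher in all 3 batches in CPM. With valproic acid C5 was lower in CPM in all 3 batches (12, 4 and 9 counts at C1 and 3, 5 and 4 at C5, with means of 1.94 and 0.982 CPM). With mocetinostat the means were 1.70 and 0.773 CPM and with scriptaid 2.97 and 1.48 CPM, with overlapping libraries. Its levels did not exceed 7.35 CPM in any C5 library, and its SEs on the log2 scale were 1.06, 1.18 and 1.16.

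CYP2R1, the vitamin D 25-hydroxylase, rose at C5 with apicidin, mocetinostat, tacedinaline and vorinostat. With vorinostat the libraries held 197, 213 and 147 CPM at C1 and 345, 400.2 and 417 CPM at C5 (log2 change 1.17, SE 0.15, adjusted p = 8.5e-08). With apicidin they held 151, 153 and 177 CPM and 374, 296 and 376 CPM (log2 change 1.13, SE 0.16, adjusted p = 2.2e-05). With mocetinostat they held 148, 203 and 139 CPM and 438, 354 and 278 CPM (log2 change 1.21, SE 0.26, adjusted p = 0.0018). Each C5 library lay above each C1 library with these 3 chemicals. The change was smaller with tacedinaline, whose libraries held 209.7, 196 and 166 CPM and 289.6, 277 and 259 CPM (log2 change 0.61, SE 0.14, adjusted p = 0.00057). It lay near the 1.5-fold limit and was not called in 1 model of all libraries (0.53, adjusted p = 0.11), without batch 3 (0.54, adjusted p = 0.0060) or without the low-count filter (0.57, adjusted p = 0.0012). With apicidin the rise was called from C3 (0.68) and C4 (0.75), and with mocetinostat likewise (0.86 and 0.98).

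Whether CYP2R1 was called under scriptaid depended on the fit. The C1 libraries held 166, 141 and 189 CPM and the C5 libraries 318, 329 and 348 CPM without overlap, but the change was not called (log2 change 1.08, SE 0.43, adjusted p = 0.068). The C4 libraries held 145, 209.5 and 846 CPM, the last being the batch 3 library that stood apart in scaling. Without that library CYP2R1 rose at C5 (log2 change 1.06, SE 0.17, adjusted p = 1.9e-05), in a fit that called 18.6% of 13228 features as risen. With that library kept, the change was also called with the culture batch as a block (1.09, adjusted p = 0.045). So it was in 1 model of all libraries (1.01, adjusted p = 0.0011). Leaving out batch 3, which removes that library too, also gave a call (1.13, adjusted p = 0.00012). With panobinostat (log2 change 0.48, SE 0.20, adjusted p = 0.096), trichostatin A (log2 change 0.48, SE 0.20, adjusted p = 0.48) and valproic acid (log2 change 0.20, SE 0.22, adjusted p = 0.63) no change was called, although C5 lay above C1 in all 3 batches with each. At C1 the group means of the 8 chemicals were close, from 150.4 ± 9.31 CPM to 191 ± 22.2 CPM. At C5 they ran from 388 ± 37.4 CPM with vorinostat, through mocetinostat, apicidin and scriptaid, to 275 ± 15.3 CPM with tacedinaline and 236 ± 18.8 CPM with panobinostat, then trichostatin A and valproic acid (185 ± 5.93 CPM). In this order only scriptaid against tacedinaline and tacedinaline against panobinostat had libraries that did not overlap.

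**Figure D4:**
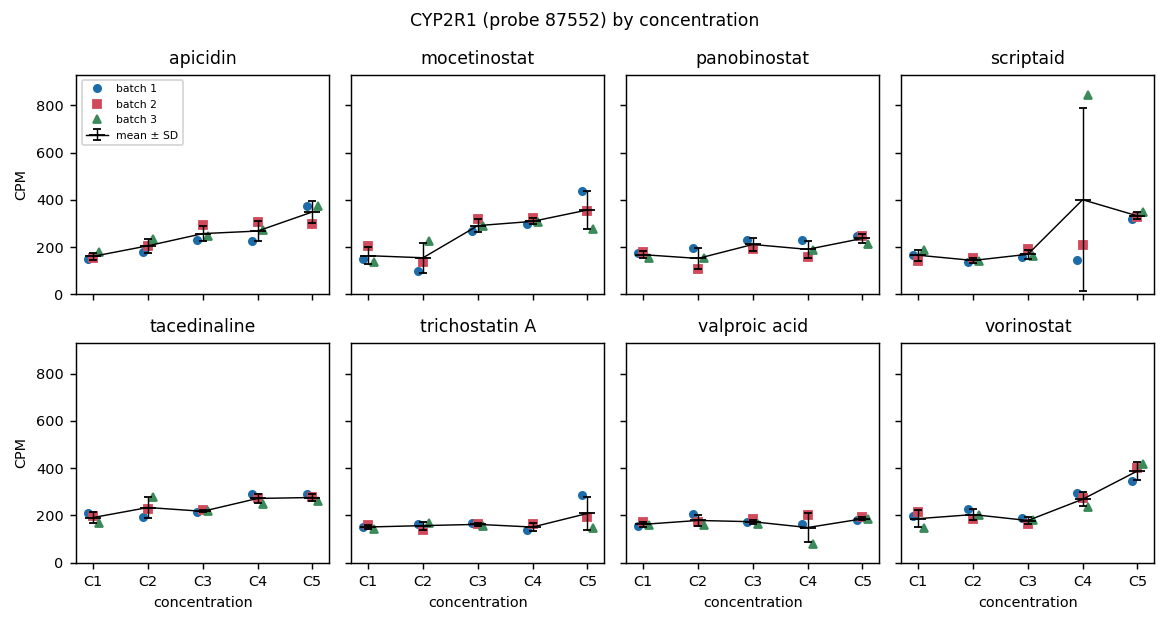
CYP2R1 level in CPM at C1 to C5 for each chemical, with 1 symbol per culture batch and the mean ± SD of each group. The C5 libraries of vorinostat, apicidin and mocetinostat lie above their C1 libraries, and the batch 3 library of scriptaid at C4 lies at 846 CPM, above all others.

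CYP2U1, a fatty acid hydroxylase, rose at C5 with 6 chemicals by the probe CYP2U1_1726. With scriptaid the libraries held 5.57, 7.92 and 5.82 CPM at C1 and 21.0, 20.2 and 22.9 CPM at C5 (log2 change 1.79, SE 0.43, adjusted p = 0.0041). With tacedinaline they held 5.90, 10.1 and 4.64 CPM and 15.8, 22.9 and 19.96 CPM (log2 change 1.57, SE 0.41, adjusted p = 0.0016). With valproic acid they held 5.61, 4.58 and 7.04 CPM and 21.1, 18.5 and 10.2 CPM (log2 change 1.53, SE 0.39, adjusted p = 0.012). C1 and C5 libraries did not overlap with these or with the other 3 chemicals called. The other 3 had smaller margins, with apicidin at 1.41 (adjusted p = 0.024), mocetinostat at 1.07 (adjusted p = 0.037) and panobinostat at 1.37 (adjusted p = 0.0499). With the culture batch as a block the panobinostat change was not called (1.40, adjusted p = 0.055). The mocetinostat call was lost on leaving out any 1 batch, in 1 model of all libraries (adjusted p = 0.064) and without the low-count filter (adjusted p = 0.14). Also lost were the apicidin call without batch 1 or 3, the panobinostat call without batch 1 or 3, the scriptaid call without batch 1, and the valproic acid call without batch 1 or 2. The tacedinaline call held under every alternative that tested it. With vorinostat the feature rose at C4 (15.8, 20.4 and 20.5 CPM against 8.38, 8.82 and 3.73 at C1, log2 change 1.498, SE 0.46, adjusted p = 0.01) and was not called at C5 (log2 change 0.72, SE 0.49, adjusted p = 0.22).

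The second CYP2U1 probe, CYP2U1_21133, had fewer reads and rose with panobinostat, tacedinaline and vorinostat. With panobinostat no count was read at C1 and 14, 2 and 9 counts at C5, at least 9.16-fold higher with a floor of 3 counts over the C1 group (adjusted p = 0.017). The feature passed the filter there only through the higher concentrations. With tacedinaline the counts were 1, 2 and 1 at C1 and 12, 7 and 18 at C5 (log2 change 3.38, SE 1.05, adjusted p = 0.0083). With vorinostat the libraries held 1.12, 0 and 3.11 CPM at C1 and 10.6, 4.24 and 10.6 CPM at C5 (log2 change 2.65, SE 0.98, adjusted p = 0.024). With tacedinaline and vorinostat too, the C1 libraries were low and the feature passed the filter through the higher concentrations. The adjusted p-values of this probe with all 3 chemicals therefore depend on its being high there. The vorinostat call was lost without batch 1 or 2 and in 1 model of all libraries (adjusted p = 0.068). The tacedinaline and panobinostat calls were lost without batch 3, and without batch 1 the panobinostat feature was not tested. With tacedinaline both probes were called, whereas vorinostat was called at C5 by the second probe alone. With both probes summed, CYP2U1 with vorinostat was called as risen (log2 change 1.30, adjusted p = 0.0068). With mocetinostat, scriptaid and valproic acid the second probe had log2 changes of 1.83, 2.49 and 1.63 that were not called, with C1 and C5 libraries apart in all 3. Without the scriptaid C4 library of batch 3 the scriptaid change was called (2.48, adjusted p = 0.031).

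**Figure D5:**
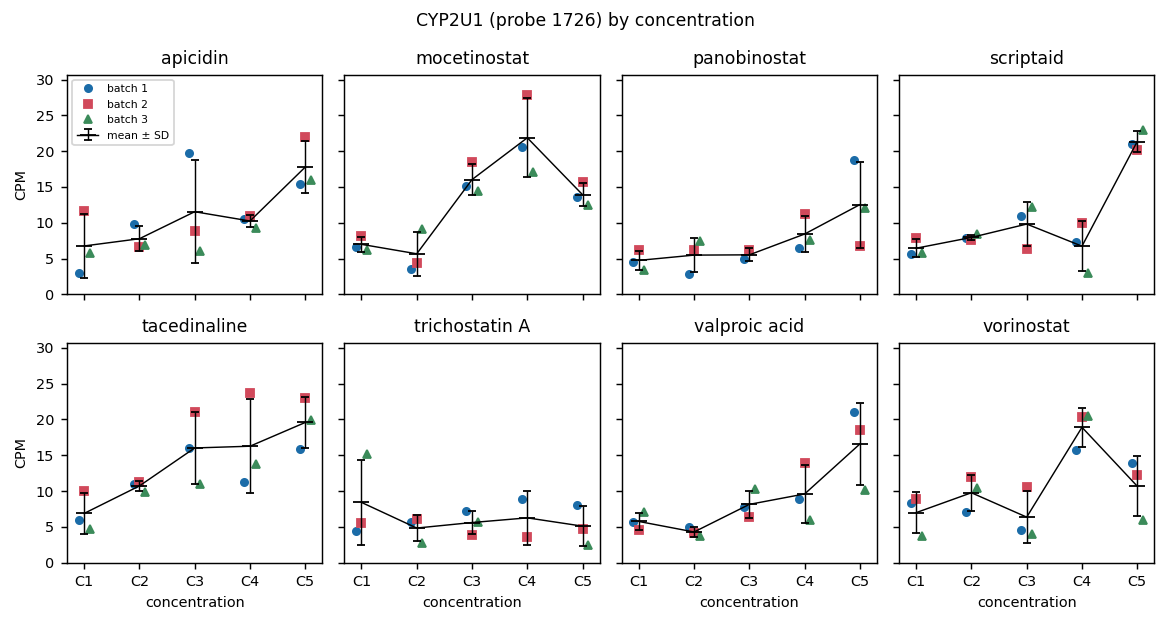
CYP2U1 level (CYP2U1_1726) in CPM at C1 to C5 for each chemical, with 1 symbol per culture batch and the mean ± SD of each group. C5 lies above C1 in every batch with all chemicals but trichostatin A, whose batch 3 library at C1 lies at 15.2 CPM.

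CYP2J2, the arachidonic acid epoxygenase, fell with scriptaid and vorinostat. With scriptaid the libraries held 36.5, 30.5 and 33.7 CPM at C1 and 6.30, 7.10 and 10.5 CPM at C5 (log2 change -2.01, SE 0.50, adjusted p = 0.0053). With vorinostat they held 34.6, 41.6 and 22.4 CPM and 16.3, 17.9 and 3.54 CPM (log2 change -1.27, SE 0.37, adjusted p = 0.0045). The groups did not overlap in either case, and without batch 2 the scriptaid call was lost (-1.99, adjusted p = 0.077). The scriptaid C4 libraries held 22.9, 33.3 and 105 CPM, with the batch 3 library again apart, and without it the C5 change was -2.03 (adjusted p = 3.5e-05). With tacedinaline the difference missed the threshold (log2 change -0.69, SE 0.30, adjusted p = 0.059), with 37.9, 33.5 and 26.4 CPM at C1 and 17.3, 18.5 and 20.8 CPM at C5. With the other 5 chemicals the log2 changes at C5 lay between -0.32 (apicidin) and 0.48 (trichostatin A), none called.

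CYP2S1, an enzyme found mainly outside the liver that oxidises retinoids, rose with mocetinostat and scriptaid. With mocetinostat the libraries held 1.32, 1.59 and 5.12 CPM at C1 and 4.90, 14.6 and 12.7 CPM at C5 (log2 change 2.09, SE 0.55, adjusted p = 0.0083). The groups overlapped in the batch 1 library at C5 and the batch 3 library at C1. The change was also called at C3 (1.90) and C4 (2.39), and at C2 the libraries already held 9.67, 12.9 and 10.9 CPM (not called, log2 change 2.13, SE 0.55, adjusted p = 0.089). With scriptaid they held 2.17, 5.04 and 2.91 CPM and 13.9, 11.1 and 9.07 CPM (log2 change 1.79, SE 0.62, adjusted p = 0.036). The scriptaid call was lost on leaving out any 1 batch and without the low-count filter (adjusted p = 0.051), and the mocetinostat call without batch 2 (1.52, adjusted p = 0.19). With panobinostat the difference missed the threshold by little (1.71, SE 0.59, adjusted p = 0.051), and DESeq2 called it (adjusted p = 0.031).

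Below C5 the first calls appeared at C3. At C2, 0 of 63 member tests were called by edgeR and DESeq2 called 1. An unadjusted p under 0.05 was held by 7 of the 63. Among all features it was held by 728 of 12706 with apicidin, 2475 of 13065 with mocetinostat and 464 of 13104 with panobinostat. It was held by 164 of 12790 with scriptaid, 934 of 12461 with tacedinaline and 718 of 12993 with trichostatin A. The numbers were 655 of 12982 with valproic acid and 330 of 11631 with vorinostat. The shares of all features called at C2 in either direction were 0.102% with apicidin, 0.191% with mocetinostat, 0.0% with panobinostat, 0.0% with scriptaid, 0.385% with tacedinaline, 0.0% with trichostatin A, 0.0% with valproic acid and 0.0172% with vorinostat. At C3, 15 of 63 were called, 10 of them as fallen: CYP2E1 with 6 chemicals, CYP2B6 with apicidin, tacedinaline and vorinostat, and CYP2A7 with mocetinostat. The 5 that rose at C3 were CYP2R1 with apicidin and mocetinostat, CYP2U1 with mocetinostat and tacedinaline, and CYP2S1 with mocetinostat. The shares of all features at C3 were 15.3% with apicidin, 11.6% with mocetinostat, 0.00763% with panobinostat, 1.34% with scriptaid, 11.9% with tacedinaline, 0.0% with trichostatin A, 1.13% with valproic acid and 7.06% with vorinostat. At C4, 18 of 63 were called, 7 as risen and 11 as fallen, and the shares of all features were 22.3% with apicidin, 23.7% with mocetinostat, 2.56% with panobinostat, 4.87% with scriptaid, 32.8% with tacedinaline, 0.0% with trichostatin A, 11.9% with valproic acid and 32.3% with vorinostat. Mocetinostat had the most member calls at both levels, 5 of 8 at C3 and 6 of 8 at C4. CYP2U1 with mocetinostat was higher at C4 (21.9 ± 5.52 CPM) than at C5 (13.9 ± 1.63 CPM), a difference that was not tested.

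CYP2E1 at C1 was also compared between culture batches. Over the 8 chemicals the C1 level was 148 to 287 CPM in batch 1 (median 207), 80.0 to 237 CPM in batch 2 (median 149) and 1.79 to 184 CPM in batch 3 (median 95.8). In a fit of the 24 C1 libraries with the chemical as covariate, 0 of 6 member features tested were called by edgeR, and 0.0907% of all 12127 features were. The unadjusted p was under 0.05 for CYP2E1 and CYP2J2, and CYP2E1 had an adjusted p of 0.41. Without the trichostatin A C1 library of batch 3, CYP2E1 was called, with batch 3 lower than batch 1 by 0.83 and batch 2 by 0.52 on the log2 scale (adjusted p = 1.6e-06). That fit called 80 of 12248 features. CYP2R1 spanned 139 to 213 CPM over the 24 libraries, and its batches overlapped throughout.

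Transcription factors and receptors that control hepatic P450 genes had calls at C5 with all chemicals but trichostatin A. Of 26 features for 20 such genes, 19 of 25 tested fell with mocetinostat, where 15.7% of all features did. Fewer fell with apicidin (16 of 24, against 15.0%), tacedinaline (16 of 22, 20.1%), scriptaid (14 of 24, 17.0%) and vorinostat (14 of 22, 24.9%). With panobinostat 7 of 24 fell (9.46%) and with valproic acid 4 of 24 (6.22%). Only apicidin (1) and vorinostat (2) had features of this list that rose, where 13.8% and 22.7% of all features did. Trichostatin A had none called of 24. The counts were not tested against these shares. The list medians of log2 change were -1.83 with mocetinostat, -1.98 with scriptaid and 0.11 with trichostatin A (-0.16 without its C1 library of batch 3, with none called). NR1I3 (CAR, NR1I3_90298) fell with 7 chemicals, for example from 35.3 ± 10.5 to 0.848 ± 0.852 CPM with scriptaid (log2 change -5.08, adjusted p = 3.4e-05). NR1I2 (PXR, NR1I2_4673) fell with the same 7, from 18.3 ± 3.22 to 0.991 ± 0.641 CPM with apicidin (log2 change -4.14, adjusted p = 9.7e-06). The second probes of both genes fell with 6. HNF4A, a master regulator of hepatocyte genes, fell with 6 chemicals, from 23.5 ± 3.07 to 0.872 ± 0.808 CPM with mocetinostat, and was not called with valproic acid (log2 change -1.19, adjusted p = 0.074). NR1H4, the bile acid receptor FXR, fell with 6.

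Genes that supply electrons and haem to the P450 enzymes had calls in both directions. Of their 16 features, 4 of 15 tested fell and 1 rose with apicidin, where 15.0% and 13.8% of all features did so. With scriptaid 1 of 16 fell and 3 rose (17.0% and 12.8% of all features), and with tacedinaline 1 of 14 and 3 (20.1% and 18.7%). With vorinostat 1 of 13 fell and 3 rose (24.9% and 22.7%), and with panobinostat 1 of 13 and 2 (9.46% and 6.77%). With mocetinostat 0 of 15 fell and 1 rose (15.7% and 14.8%), and with valproic acid 0 of 14 and 1 (6.22% and 4.84%). None was called with trichostatin A (0.0154% and 0.0%). The counts are few and were not tested against these shares. The list median lay between -0.12 (apicidin) and 0.70 (scriptaid). PGRMC1, a haem-binding partner of P450 enzymes, fell with apicidin, tacedinaline and vorinostat. POR was called by POR_5283 with scriptaid alone (0.79, risen) and by POR_23019 with panobinostat alone (-1.27, fallen), so its probes gave no common direction. CPOX and CYB5R3 rose with tacedinaline and vorinostat, and UROD and CYB5A fell with 1 chemical each.

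Markers of other cell types are given beside these results. Of 12 biliary and progenitor features, 4 to 6 were tested per chemical. SPP1 and SOX9 each rose with 5 chemicals, SOX9 from 27.1 to 96.8 CPM with apicidin, and KRT19 rose with 1. Their summed level at C5 lay between 67.3 and 228 CPM. The probes CFTR_20862, EPCAM_92623 or both had no count in any library of 6 chemicals, which does not show that these cells were absent. Of 14 mesenchymal features, COL3A1 and ACTA2 fell with 7 chemicals and DCN_27098 with 6, while COL1A1 rose with 6, and LUM rose with 1 and fell with 3. Their sum at C5 lay between 111 and 235 CPM. THY1 had no count in any library of scriptaid, tacedinaline or vorinostat. The part of these markers in the member results was not tested.

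Features whose pattern was most like that of each member were found by Pearson's r of log2 mean CPM over the 40 groups (1 CPM added before the log), among 8748 features with a mean of at least 10 CPM. The groups share plates and batches, so r is a description. For CYP2E1 they were DPYS_89710 (0.94), ADH1A_126 (0.94), DPYS_90049 (0.94). DPYS and ADH1A are enzymes of pyrimidine breakdown and of alcohol oxidation. For CYP2R1 they were ANKMY2_11687 (0.95), TMTC3_89780 (0.92), ATP6V1D_574 (0.92), and for CYP2J2 RAB4B-EGLN2_25428 (0.90), ZNF214_11725 (0.89), TMEM154_24660 (0.89). For CYP2U1_1726 they were P4HA2_4889 (0.88), RNF24_21568 (0.88), GPR50_89779 (0.87). CYP2B6_14401 and CYP2S1 had lower best values, with OPLAH_15677 (0.86), ITGA10_27364 (0.86), NUPR1_26317 (0.85) for the first and LAPTM4B_88751 (0.83), CDCP1_13338 (0.81), SMPDL3B_20517 (0.81) for the second.

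The inhibitors fall into chemical classes. Panobinostat, scriptaid, trichostatin A and vorinostat carry a hydroxamate, mocetinostat and tacedinaline are benzamides, apicidin is a cyclic tetrapeptide and valproic acid is a short branched fatty acid. Their doses differed, so their values are set side by side without comparison. At C5 the log2 changes of CYP2E1 were -1.18, -3.78, -0.73 and -3.49 with the hydroxamates in the order named (trichostatin A -1.31 without its C1 library of batch 3), and -4.86 and -5.24 with the benzamides. Those of CYP2R1, in the same order, were 0.48, 1.08, 0.48 and 1.17, and 1.21 and 0.61.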

How the data were processed

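Libraries were TempO-Seq libraries, in which probe pairs are ligated on RNA in cell lysates and sequenced. The deposited values were whole-number read counts per probe feature and library, which the authors made before deposit with no normalization. The submitters' processing notes name bcl2fastq 2.20.422, fastp 0.23.2, STAR 2.7.10b and DESeq2 1.38.0 without giving their roles, and the genome build is not given in the sources used here. One row without a value in 88 libraries was left out, which kept 22068 of 22069. The 118 count columns were all used.

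Each chemical was fitted separately with edgeR 4.0.16 in R 4.3.3 (filterByExpr, TMM scaling, glmQLFit and glmQLFTest), with its C1 to C5 groups as terms, and each level was tested against C1 over all features that passed the filter. p-values were adjusted by Benjamini-Hochberg over each table, and a feature was called at 1.5-fold or more with an adjusted p under 0.05. Groups at 0 counts were bounded with a floor of 3 counts over the group, and ratios carry an exact 95% interval for counting error only. Reads had no molecular identifiers named in the sources. Culture batches at C1 were compared in a fit of the 24 C1 libraries with the chemical as covariate. The study's replicates were culture batches, so p-values measure the spread between batches of 1 line.

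The labels state that the replicate number marks the culture batch, which pairs samples. Deviations from group means correlated with a median r of 0.0230 over 232 pairs of the same batch and -0.0109 over 464 pairs of different batches. Libraries of a group correlated at 0.843 to 0.971 over 116 pairs, and none was identical to another. Alternatives were DESeq2 1.42.0, RLE scaling, no low-count filter, 1 model of all libraries, a replicate block, summed probes and leaving out batches or libraries. The scriptaid fit without the C4 library of batch 3 was chosen after seeing the data.

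The named genes were all 10 members, and from each other list the up to 6 features called with the most chemicals at C5, with NR1I2, NR1I3, HNF4A and POR always named. Some features that this rule names are not reported here. The members and the lists of genes were chosen with earlier results of these data known. The fits were tested on simulated data. Tables and figures used pandas 2.3.3, scipy 1.17.1 and matplotlib 3.10.9.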

Additional observations from a re-analysis of the deposited data

How the results depend on the processing

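The 30 called member changes at C5 gave 274 values under the alternatives, of which 236 kept the call, 38 lost it and 0 changed direction. Of the 30 calls, 12 held in every alternative that tested them, and the cause of the losses was not tested. Leaving out 1 batch gave 3 to 4 calls with apicidin (4 with all batches), 3 to 5 with mocetinostat (6), 0 to 3 with panobinostat (3), 2 to 6 with scriptaid (5), 2 to 5 with tacedinaline (5), 0 to 1 with trichostatin A (0), 1 to 2 with valproic acid (3) and 3 to 4 with vorinostat (4). For trichostatin A, 1 feature was called without the low-count filter and 1 without the C1 library of batch 3. For scriptaid, 8 were called without the C4 library of batch 3, a fit that left the totals at C3 and C4 at 15 and 18. Over all chemicals, leaving out 1 batch gave 0 to 2 calls at C2 (0), 2 to 9 at C3 (15) and 8 to 14 at C4 (18). At C2, DESeq2, no low-count filter and 1 model of all libraries each gave 1 call. Between culture batches at C1, leaving out a batch gave 0 calls, and 1 feature was called without the low-count filter and 1 without the trichostatin A C1 library of batch 3. With the replicate block, the C5 counts were 4, 6, 2, 6, 5, 0, 3 and 4 in the alphabetical order of the chemicals. The block lost CYP2U1_1726 with panobinostat (log2 change 1.40, adjusted p = 0.055), added CYP2R1 with scriptaid (1.09, 0.045), and left 13 calls at C3, 18 at C4 and 0 at C2. Low counts of CYP2A6, CYP2A13, CYP2A7, CYP2D6 and the second probes of CYP2B6 and CYP2U1 limit what could be detected.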

Other observations

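The change with concentration was also compared between culture batches for each member. In 63 tests of a difference in slope between batches, none had an adjusted p under 0.05, 4 had an unadjusted p under 0.05, and the lowest adjusted p was 0.48. The share of all features with such an unadjusted p was not computed. Collagen genes did not move together at C5, where COL1A1 rose with 6 chemicals and COL3A1 fell with 7.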
